A study of Mus musculus with 6 samples.

Results

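The genes described here are 10 members of the integrated stress response that act with or downstream of the transcription factor ATF4, namely Atf4, Atf5, Ddit3, Ddit4, Trib3, Nupr1, Chac1, Asns, Psat1 and Fgf21. They were picked by gene symbol from the 45777 genes of the deposited table, and the choice used no measured value as a criterion, though earlier results of these data were known when it was made. Of the 10, 9 averaged 10 counts or more per library and were tested among 18328 such genes, and Fgf21 had 0 counts in each library.

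RNA was sequenced from mouse hearts to ask whether ginsenoside Rh2, a saponin of ginseng, changes the heart exposed to doxorubicin (Dox), an anthracycline that damages heart muscle. There were 6 libraries, each from 5 pooled hearts, and no condition had a second library. All mice were BALB/c nude (CAnN.Cg-Foxn1nu/Crl), labelled as 6 weeks old and described as female in the study's methods, and all of them, Control included, carried a tumour of the human breast cancer line MDA-MB-231. The Foxn1nu allele leaves the host without a normal thymus and so with few mature T cells, and no library came from a mouse without a tumour. The Control group received vehicle, groups Rh2-20 mg/kg and Rh2-30 mg/kg received that dose of Rh2 daily, the Dox group received 2 mg/kg every other day to a cumulative 22 mg/kg, and the last pair of groups, Rh2-20 mg/kg + Dox and its 30 mg/kg counterpart Rh2-30 mg/kg + Dox, received both. Treatment lasted 3 weeks.

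The integrated stress response begins when a kinase phosphorylates the translation factor eIF2alpha in answer to amino acid shortage, unfolded protein, haem shortage, viral RNA or mitochondrial damage. General protein synthesis then slows, while the Atf4 messenger is translated more, so that ATF4 protein can change without a change in Atf4 RNA. ATF4 and its partners of the C/EBP family switch on amino acid synthesis, amino acid uptake, transfer RNA charging and redox genes, and under lasting stress the death-linked factor CHOP.

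ATF4 and C/EBP factors bind a joint motif, the C/EBP-ATF response element, written here as TGATGNAA or, on the other strand, TTNCATCA. Both orientations were searched in RefSeq's GRCm38.p6 windows from 250 bases before to 50 bases after each gene's start, and all 10 genes had a window. The motif was in 5 of the 10 and in 13.8% of 94 other genes of the pathway. It was in 4.51% of all 27025 genes with a window, and in 3.97% of all 32851 windows. The motif was not itself a criterion, but the members were chosen as genes of the ATF4 pathway. Their share is therefore not an independent result, and the 5 matches are shown as a description. Capitals mark the match, and each run is written 5′ to 3′ on the gene's strand.
Chac1: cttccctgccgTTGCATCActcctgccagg
Trib3: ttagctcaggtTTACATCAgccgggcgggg
Asns: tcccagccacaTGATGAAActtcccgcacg
Fgf21: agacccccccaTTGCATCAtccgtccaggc
Nupr1: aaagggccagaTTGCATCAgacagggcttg
The Chac1 run lies at chr2:119351038-119351067 on the plus strand, with the match ending 186 bases before the start. The other sequences lie on the minus strand, Trib3 at chr2:152344028-152344057, Asns at chr6:7693214-7693243, Fgf21 at chr7:45615611-45615640 and Nupr1 at chr7:126625562-126625591. The match ended 16 bases before the start in Asns, 132 in Fgf21 and 103 in Nupr1, and in Trib3 it lay 15 to 22 bases after the start. For Atf4, Atf5, Ddit3, Ddit4 and Psat1 these letters were not in the window. A match describes the letters and was not tested as a bound site.

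Levels are given as TMM-normalized CPM, counts scaled to a common library size, a scale on which libraries can be compared for 1 gene. Genes were compared with each other per transcript length, as deposited FPKM. The libraries held 86164411 to 90621002 counts, so counting error was small beside the spread between libraries, whose common dispersion of 0.0285 alone gives the ratio between 2 libraries a 95% interval of 0.67 on the log2 scale to either side. A ratio between single libraries has no replicate check and no p-value, and where no interval is printed beside it, one of at least this width applies, wider for low counts. The libraries with and without Dox (3 and 3, with the same Rh2 doses) and with and without Rh2 (4 and 2) were tested across all 18328 genes with edgeR's quasi-likelihood test and Benjamini-Hochberg adjustment. In bulk heart RNA, fewer cells of a type and less RNA per cell cannot be told apart.

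The labelled tissue, heart, was checked with 8 ventricular cardiomyocyte markers, none of them at 0, whose summed level was 5019 to 6995 FPKM. The Rh2-30 mg/kg library stood apart. Its 5 atrial markers summed to 1919 FPKM, against 39.2 to 489 in the others, its 4 brown fat markers to 50.9 against 2.56 to 6.25, its 4 white fat markers to 39.9 against 0.053 to 7.92, its 4 macrophage markers to 158 against 54.0 to 115, and its ventricular sum was the lowest. Of the white fat markers Lep was at 0 in 5 of 6 libraries. The 3 lung markers summed to 13.5 FPKM in that library against 0.153 to 1.87, nearly all from Scgb1a1, while Sftpc was at 0 in each library. Liver markers, which would carry Fgf21 and much amino acid metabolism, summed to 0.592 to 0.771 FPKM over the 6 libraries, with Fgb at 0 in each. Red cell markers ranged from 2032 FPKM in Rh2-30 mg/kg + Dox to 12724 in Dox.

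Per transcript length the most abundant member was Atf4, with a median of 24.3 FPKM over the 6 libraries and a range of 21.4 to 28.5. Ddit4 and Ddit3 followed, with medians of 8.22 and 7.69 FPKM. Their ranges, 3.65 to 8.89 and 6.69 to 9.27, overlapped, so that their order was not fixed. The remaining genes had medians of 1.91 FPKM for Atf5, 1.86 for Nupr1, 1.32 for Asns, 1.18 for Chac1, 0.790 for Psat1 and 0.459 for Trib3. In this order the ranges of neighbours overlapped from Atf5 to Psat1. Atf4 lay above all others, Atf5 stayed below Ddit3, and Trib3 stayed below Psat1. Fgf21, which encodes a hormone released mainly by liver, was listed at 0, and a count of 0 allows up to 3 counts in a library, at most 0.0360 CPM.

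**Figure D1:**
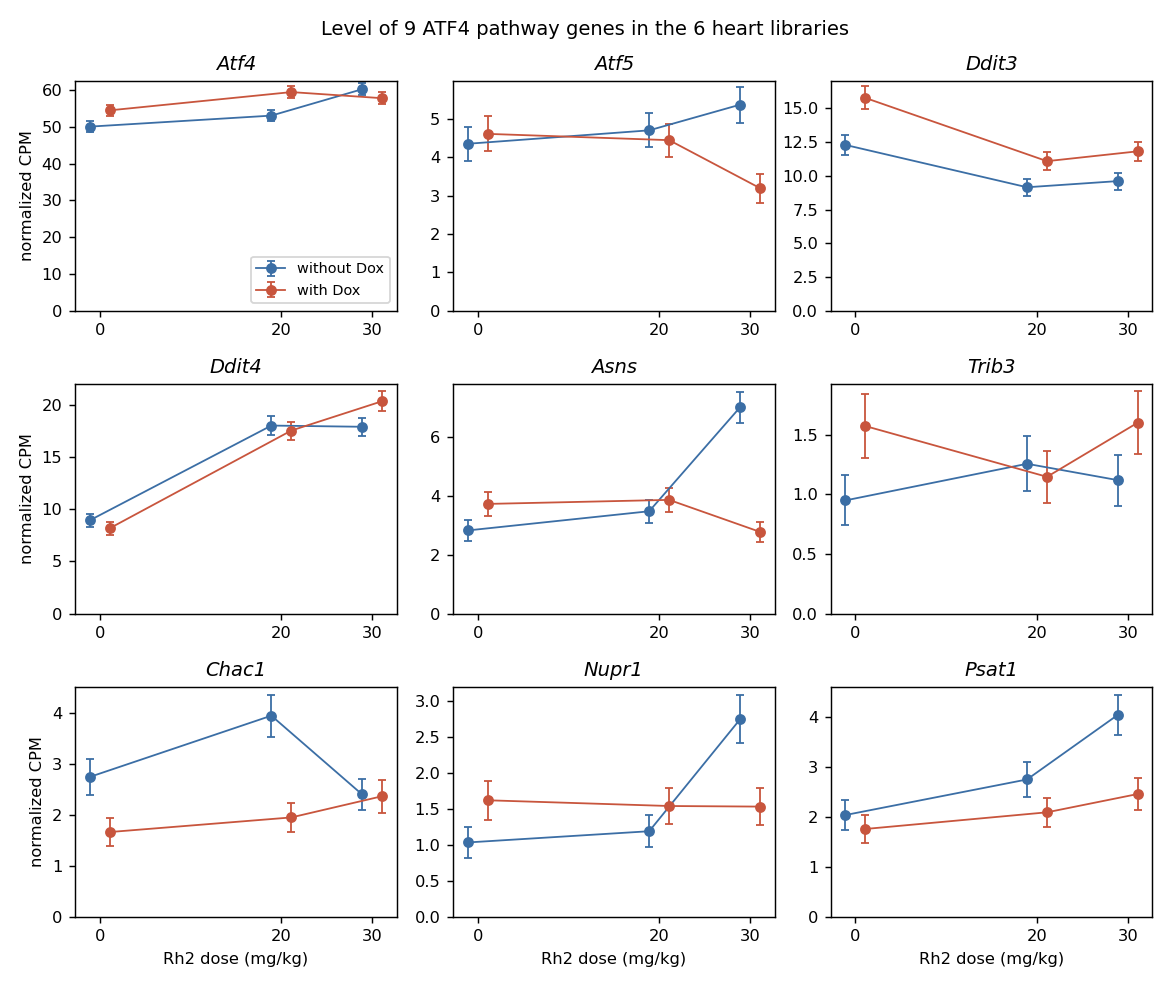
Normalized CPM of the 9 detected genes (vertical axis, from 0) against Rh2 dose in mg/kg, with libraries without Dox in blue and with Dox in red; each point is 1 library and bars are 95% counting intervals (normal approximation to the count) only. Ddit4 is at 8.17 to 8.93 without Rh2 and at 17.5 to 20.3 with it, and Asns, Nupr1 and Psat1 peak in the Rh2-30 mg/kg library without Dox.

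Of the 3 transcription factors, Atf4 had the narrowest range. Atf4 (NCBI Gene 11911, chr15:80255184-80257545, plus strand, GRCm38.p6), the central factor of the response, measured 50.03 normalized CPM in Control and 54.5 in Dox, 53.0 and 59.4 at 20 mg/kg of Rh2 without and with Dox, and 60.2 and 57.8 at 30 mg/kg. Control was the lowest and Rh2-30 mg/kg the highest, 1.20-fold apart, and the groups with and without either drug overlapped. Of the genes with a level most like that of Atf4, 24.5% had a smaller range. On the deposited FPKM the 4 Rh2 libraries, at 23.9 to 28.5, lay above the pair without Rh2, at 21.4 and 23.7, by a narrow margin. The share of all genes with this pattern on FPKM was not computed. On normalized CPM, where Atf4 did not show it, it was 9.87%. The Dox difference was 0.07 on the log2 scale (SE 0.10, edgeR quasi-likelihood adjusted p = 0.843) and the Rh2 difference 0.14 (SE 0.08, adjusted p = 0.633).

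Atf5, a related factor that answers mitochondrial protein stress, was at 4.36 normalized CPM in Control and 4.62 in Dox, 4.71 and 4.45 at 20 mg/kg of Rh2 without and with Dox, and 5.38 and 3.20 at 30 mg/kg. Its highest and lowest libraries both had 30 mg/kg of Rh2, without and with Dox. Between those 2 libraries the log2 ratio was -0.75, with an interval from -1.46 to -0.04 once the dispersion was included. At Rh2-20 mg/kg the Dox ratio was -0.08 and without Rh2 it was 0.08, and the 3 libraries on each side overlapped (adjusted p = 0.718 for Dox). The annotated span of Atf5 shares 571 bases with Nup62 and 289 with Il4i1b, all at the start of Atf5. Reads there cannot be assigned to Atf5 with certainty, as the strand setting of the counting is not given in the sources used here.

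Ddit3 (chr10:127290793-127296291, plus strand), which encodes CHOP, stood at 12.3 normalized CPM in Control and 15.8 in Dox, 9.15 and 11.1 at 20 mg/kg of Rh2 without and with Dox, and 9.61 and 11.8 at 30 mg/kg. Dox alone was the highest library, and the 4 Rh2 libraries all lay below the pair without Rh2 on this scale. On the deposited FPKM they overlapped, with 7.97 in Rh2-20 mg/kg + Dox and 7.78 in Control. At each Rh2 dose the Dox library was above its partner, by log2 ratios of 0.36, 0.28 and 0.30, whose counting intervals left out 0 and whose intervals with the dispersion did not. Ddit3 was the single member higher in all 3 pairs, a pattern that 15.9% of all genes showed.

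For Ddit3 the Rh2 libraries differed from those without by -0.43 on the log2 scale (SE 0.09), 0.744-fold, and 9.08% of all genes had the 4 libraries below the other pair. Ddit3 was the 1 member lower with Rh2 at an unadjusted p under 0.05, beside 4.65% of all genes, and Ddit4 the 1 higher, beside 4.09%. With edgeR's quasi-likelihood test the adjusted p was 0.567, and with DESeq2's Wald test 0.0194, in a range over 12 alternatives from 0.0194 to 0.987. On the log2(FPKM + 1) scale with limma the difference was -0.20. The Dox difference was 0.32 (SE 0.18, adjusted p = 0.597 in edgeR), and it ran from 0.15 without Dox to 0.46 without Control. Ddit3 shares 77 bases with Mbd6 and 71 with Mars1 at its ends.

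Ddit4 (REDD1, chr10:59949675-59951770, minus strand), an inhibitor of mTORC1 that is induced by ATF4, low oxygen, DNA damage and glucocorticoids, separated the libraries by Rh2. It was at 8.93 normalized CPM in Control and 8.17 in Dox, 18.001 and 17.5 at 20 mg/kg of Rh2 without and with Dox, and 17.9 and 20.3 at 30 mg/kg, from 687 to 1767 counts. The 4 Rh2 libraries lay close together and all above the pair without Rh2, with no overlap. Ddit4 and Psat1 were the 2 members with that pattern, which 9.87% of all genes showed.

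The Rh2 difference of Ddit4 was 1.11 on the log2 scale (SE 0.11), 2.15-fold, and by its p-value Ddit4 ranked 3 of the 18328 genes. No gene passed an adjusted p of 0.05 in this comparison with edgeR's quasi-likelihood test, so that 0% of genes and 0 members were called. An unadjusted p under 0.05 was reached by 8.74% of genes, and DESeq2's Wald test called 242. Ddit4 itself had an adjusted p of 0.381 in edgeR, 5.33e-12 in DESeq2's Wald test and 0.0337 in edgeR with the Rh2-20 mg/kg libraries alone, and over 12 alternatives the adjusted p ran from 5.33e-12 to 0.987. Leaving out each library in turn kept the difference between 1.01 and 1.21, with 1.14 without Rh2-30 mg/kg.

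In single ratios, Ddit4 was 2.02-fold higher in Rh2-20 mg/kg than in Control (log2 1.01, counting interval 0.89 to 1.14, and 0.32 to 1.697 with the dispersion) and 2.00-fold higher in Rh2-30 mg/kg. Over Dox alone it was 2.14-fold higher with 20 mg/kg added and 2.49-fold higher with 30 mg/kg. The Dox ratios at matched Rh2 dose were -0.13, -0.04 and 0.18, and the Dox comparison gave 0.04 (SE 0.39, edgeR adjusted p = 0.985). That comparison held no Rh2 term. With Rh2 dose as a term, which sets each Dox library against its partner, the value was 0.0071 (SE 0.11, edgeR adjusted p = 0.991). Ddit4 at 20 mg/kg of Rh2 was thus about as high as at 30 mg/kg in these libraries, and each dose had 1 library per Dox state. Of 11 marker lists for cell types, the summed level of 1 set the Rh2 libraries apart, in the opposite direction to Ddit4. That list was skeletal muscle, at 0.953 to 1.44 FPKM with Rh2 and 1.46 to 1.60 without. Its part in the result was not tested.

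Among 132 genes of the stress pathways, the one whose log2 level was most like that of Ddit4 over the 6 libraries was Gadd45b, a stress sensor of the GADD45 family (r = 0.956, and 0.967 over 5 libraries without Rh2-30 mg/kg). It stood at 3.67 normalized CPM in Control and 3.86 in Dox, and at 5.52 to 7.36 in the 4 Rh2 libraries. As Ddit4 is also a glucocorticoid-induced gene, 8 further glucocorticoid targets were set beside it. In the Rh2 comparison 6 of the 8 had an unadjusted p under 0.05, all higher, again beside 4.09% of all genes, and 0 passed the adjusted threshold in edgeR. The 6 were Fkbp5 (0.92 on the log2 scale), Cebpd (0.89), Errfi1 (0.78), Tsc22d3 (0.43), Klf9 (0.37) and Sgk1 (0.31). Per1 and Zbtb16 did not reach it. In Dox over Control, where Ddit4 was at -0.13, the median of the 8 was -0.0031. Fkbp5, a co-chaperone of the glucocorticoid receptor, was the 1 past 2-fold, at 1.31. Over all genes 5.44% were at least 2-fold higher in that ratio and 3.58% lower. In the test of all Dox libraries, where Ddit4 was at 0.04, 2 of the 8 were higher at an unadjusted p under 0.05, beside 4.2% of all genes. They were Fkbp5 (1.09) and Zbtb16 (0.58), and neither passed the adjusted threshold in edgeR. A part of glucocorticoids in the Ddit4 level was not tested.

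**Figure D2:**
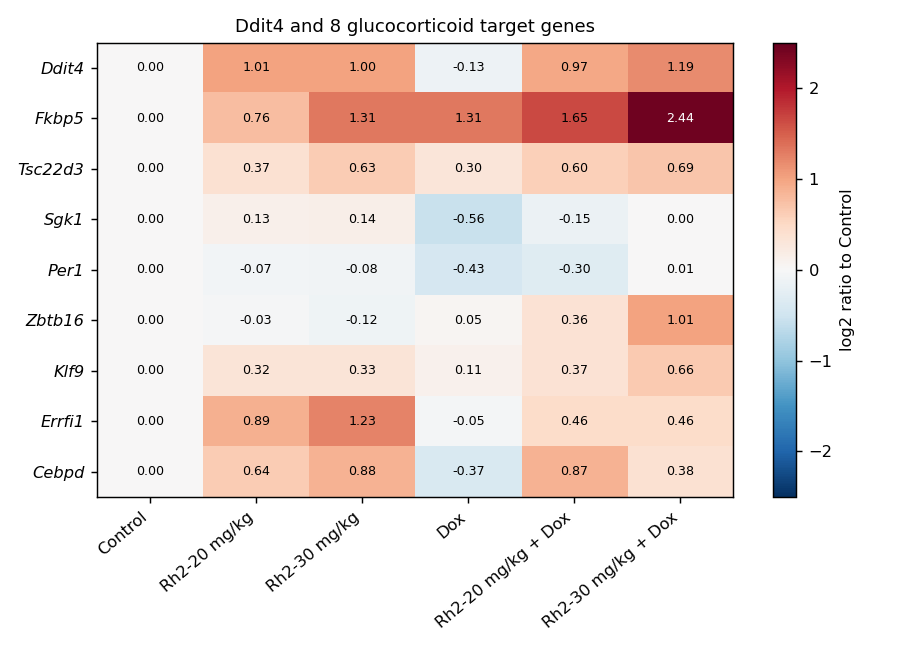
Log2 ratio to Control (colour and number) of Ddit4 and 8 glucocorticoid target genes in rows, with the 6 libraries in columns and Control at 0 by construction; 1 library per condition. Ddit4 is at 0.97 to 1.19 in the 4 Rh2 columns and -0.13 in Dox, while Fkbp5 reaches 1.31 with Dox alone and 2.44 with Dox plus the higher Rh2 dose.

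Trib3, a pseudokinase that feeds back on ATF4 and on AKT, had the lowest level per length of the detected genes. It measured 0.948 normalized CPM in Control and 1.57 in Dox, 1.25 and 1.15 at 20 mg/kg of Rh2 without and with Dox, and 1.12 and 1.60 at 30 mg/kg, from 79 to 139 counts. The 2 highest libraries had Dox, but the third Dox library lay among those without it. Dox over Control gave a log2 ratio of 0.72, with a counting interval of 0.31 to 1.15 and an interval of -0.06 to 1.51 with the dispersion. The Dox difference over all libraries was 0.38 (SE 0.24, edgeR adjusted p = 0.647) and the Rh2 difference 0.05 (SE 0.27, adjusted p = 0.964).

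Nupr1, a small chromatin-associated stress protein, was at 1.03 normalized CPM in Control and 1.62 in Dox, 1.19 and 1.54 at 20 mg/kg of Rh2 without and with Dox, and 2.74 and 1.53 at 30 mg/kg. A single library, Rh2-30 mg/kg, was high, and the 3 Dox libraries lay close together between it and the other 2. Rh2-30 mg/kg was 2.65-fold above Control (log2 1.40, 0.64 to 2.16 with the dispersion). With Dox, the 30 mg/kg library differed from Dox alone by -0.08. The Rh2 difference was 0.40 (SE 0.43, edgeR adjusted p = 0.783), and 0.050 without Rh2-30 mg/kg, where the Dox difference of -0.08 (SE 0.38, adjusted p = 0.963) became 0.50. The annotated span of the RefSeq lncRNA Gm39087 covers the whole of Nupr1. Exons and strand were not compared, so whether reads of that transcript were counted for Nupr1 is not known here.

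Asns, asparagine synthetase and one of the best known ATF4 targets, measured 2.83 normalized CPM in Control and 3.74 in Dox, 3.49 and 3.87 at 20 mg/kg of Rh2 without and with Dox, and 7.02 and 2.78 at 30 mg/kg. Rh2-30 mg/kg was again the high library, and the other 5 stayed within 2.78 to 3.87. It was 2.48-fold above Control (log2 1.31, 0.60 to 2.02 with the dispersion), and Rh2-30 mg/kg + Dox was 2.52-fold below it (log2 -1.33, -2.04 to -0.63). At the lower Rh2 dose the Dox ratio was 0.15 and without Rh2 it was 0.40. The Dox difference over all libraries, -0.36 (SE 0.35, edgeR adjusted p = 0.776), became 0.14 without the Rh2-30 mg/kg library. The Rh2 difference was 0.33 (SE 0.39, adjusted p = 0.805) and 0.039 without it.

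Psat1, the phosphoserine aminotransferase of serine synthesis, was at 2.04 normalized CPM in Control and 1.76 in Dox, 2.75 and 2.095 at 20 mg/kg of Rh2 without and with Dox, and 4.05 and 2.46 at 30 mg/kg. With and without Dox, the level ran in the order none, 20 and 30 mg/kg of Rh2. The share of all genes with this order was not computed. Over Dox alone the ratios, 0.25 and 0.48, had intervals with the dispersion that held 0. The 4 Rh2 libraries were all above the other pair, though by as little as 0.04 on the log2 scale from Control. The Dox ratios at matched dose were -0.21, -0.39 and -0.72. The Rh2 difference was 0.55 (SE 0.24, edgeR adjusted p = 0.572) and the Dox difference -0.49 (SE 0.28, adjusted p = 0.614). Without the Rh2-30 mg/kg library they were 0.41 and -0.18.

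Chac1, an enzyme that degrades glutathione and is induced by ATF4 and CHOP, was the one member whose 3 Dox libraries all lay below the 3 without, a pattern of 9.16% of genes. No member had them all above, which 7.85% of genes did. It stood at 2.75 normalized CPM in Control and 1.67 in Dox, 3.95 and 1.95 at 20 mg/kg of Rh2 without and with Dox, and 2.40 and 2.37 at 30 mg/kg. The lowest value without Dox and the highest with it were 0.02 apart on the log2 scale. Dox ratios at matched Rh2 dose were -0.72 without Rh2, -1.02 at 20 mg/kg and -0.02 at 30 mg/kg. Of these, only the ratio at 20 mg/kg left out 0 once the dispersion was included (-1.74 to -0.29). Chac1 and Psat1 were the 2 members lower in all 3 pairs, beside 17.6% of genes.

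The Dox difference of Chac1 was -0.60 (SE 0.25), 0.658-fold, with an adjusted p of 0.483 in edgeR's quasi-likelihood test and 0.377 to 0.764 over 11 alternatives. With 1 library left out it ran from -0.75 without Rh2-30 mg/kg + Dox to -0.36 without Rh2-20 mg/kg, and was -0.74 without Rh2-30 mg/kg. The test called 5 genes in all, 0.0273%, and none of the 9 members. An unadjusted p under 0.05 was reached by 10.1% of genes and by 1 member, Chac1. With Rh2 dose as a term, which sets each Dox library against its partner, Chac1 (-0.59, SE 0.26) no longer reached it and Ddit3 (0.31, SE 0.09) did. In that fit 1598 of the 18328 genes reached it. No member reached it without Rh2-20 mg/kg (beside 1483 of all genes), without Rh2-20 mg/kg + Dox (1626) or without Dox (1475). Without Control those that did were Ddit3 and Psat1, beside 1624 of all genes. Chac1 alone of the members still reached that threshold without Rh2-30 mg/kg (1665) and without Rh2-30 mg/kg + Dox (1688). The same held with DESeq2 size factors (1858), DESeq2's Wald test (2069), limma (1750) and no count filter (2070 of 26776). The members' median Dox difference was -0.08, with 4 positive and 5 negative values, beside a median of -0.01 over all genes. Without the Rh2-30 mg/kg library, which stood apart, the median was 0.16 with 6 positive and 3 negative values, so its sign rested on that library, and with Rh2 dose as a term it was 0.0071. For Rh2 the median was 0.29, with 7 positive and 2 negative values, beside 0.01 over all genes. It was 0.065 without Rh2-30 mg/kg, and -0.077 with 4 positive and 5 negative values without Control.

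**Figure D3:**
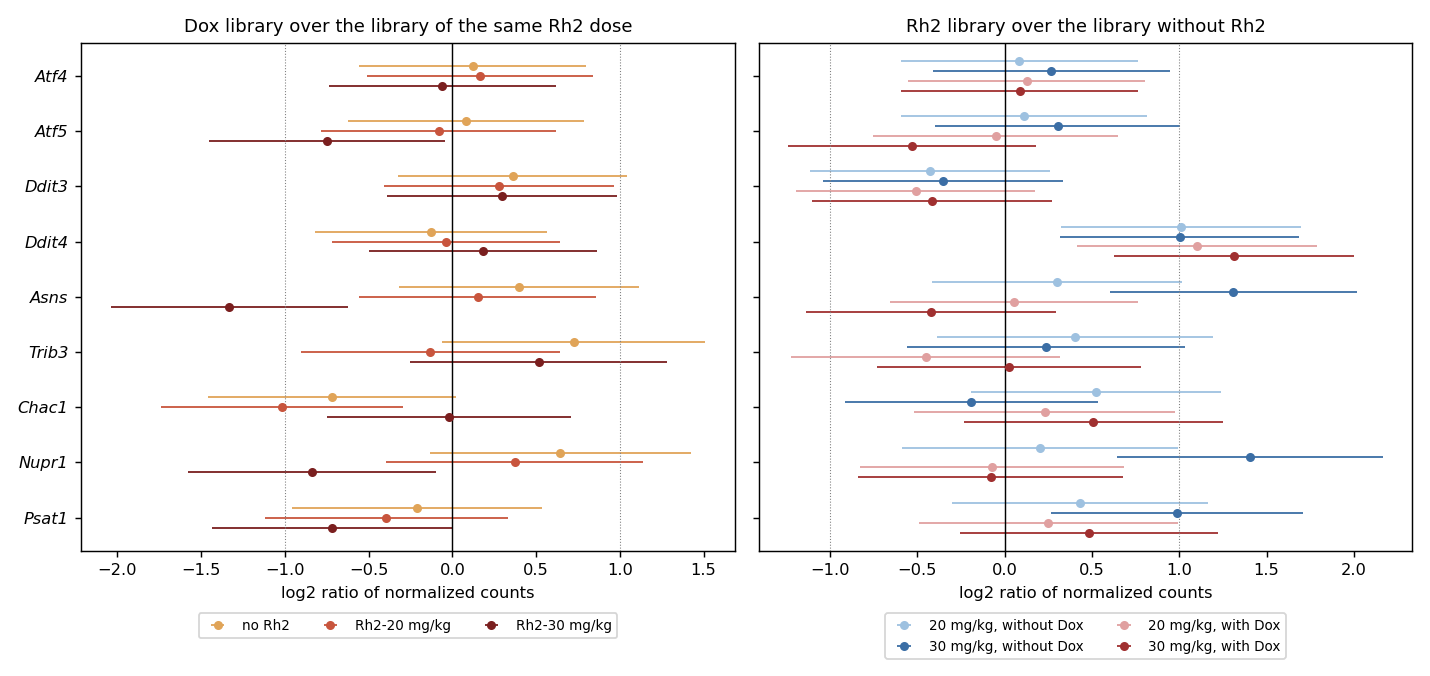
Log2 ratio of normalized counts (horizontal axis) for 9 genes; the left panel sets each Dox library against the library with its Rh2 dose and the right panel each Rh2 library against Control or Dox. Lines are 95% intervals with the common dispersion and dotted lines mark 2-fold; all 4 Ddit4 ratios on the right lie at 1.002 to 1.31, and Asns and Nupr1 cross 2-fold in the Rh2-30 mg/kg library over Control.

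Over 9 comparisons of single libraries the 9 genes gave 81 ratios, of which 9 passed 2-fold, in 4 genes. Ddit4 accounted for 5, and 14 ratios had an interval with the dispersion that left out 0. The share of such intervals over all genes was not computed, so the 14 is a description only. Against Control, 1 of 9 members was at least 2-fold higher with Rh2 at 20 mg/kg (3.35% of all genes) and 3 at 30 mg/kg (8.48%). When Dox was added the counts were 0 at the lower dose (5.13%) and 1 at the higher (4.08%), and with Dox alone 0 (5.44%). These 5 comparisons share the Control library. Against Dox, which both combinations share, Ddit4 alone was at least 2-fold higher in each, beside 3.08% of genes at the lower Rh2 dose and 2.76% at the higher. At matched dose, Chac1 was at least 2-fold lower at 20 mg/kg (2.87%) and Asns at 30 mg/kg (12.1%). No member was 2-fold lower than Control in any library, beside 2.8% and 1.63% of genes at 20 and 30 mg/kg of Rh2, 3.62% and 6.85% at those doses with Dox, and 3.58% with Dox alone. None was 2-fold lower than Dox either, beside 3.44% for the lower Rh2 dose and 7.35% for the higher.

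The product of Dox and Rh2 was tested in a separate fit, with Dox, Rh2 and their product as terms. In that fit Control and Dox were each the only library of their kind. A gene's own spread there came only from the lower-dose against the higher-dose Rh2 library, with and without Dox. The SEs given here therefore rest on libraries of different Rh2 dose and not on replicates. With edgeR 0 of 18328 genes, 0%, passed the adjusted threshold and 2.71% had an unadjusted p under 0.05 (0.895% higher and 1.82% lower), none of them a member, while DESeq2's Wald test called 38 genes. The largest values among the members were -1.06 for Asns (SE 0.69) and -1.005 for Nupr1 (SE 0.80), both with an adjusted p of 0.988. For Ddit4 the value was 0.20 (SE 0.23, adjusted p = 0.988).

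The Rh2-30 mg/kg library held the highest level of 5 members, Atf4, Atf5, Asns, Nupr1 and Psat1, beside 26.1% of all genes. For 2 of them, Asns and Nupr1, it was at least 1.5-fold above each other library, beside 5.12% of all genes. It is the same library whose atrial, brown fat, white fat and macrophage marker sums were the highest, as given above. The part of these cells in the Asns, Nupr1 and Psat1 levels was not tested.

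Of 15 further genes of amino acid and folate metabolism, 4 were at least 2-fold higher in Rh2-30 mg/kg than in Control, beside 8.48% of all genes, and the median of the list was 0.15. In Rh2-30 mg/kg + Dox over Rh2-30 mg/kg, 4 were at least 2-fold lower, beside 12.1% of all genes, while the median of the list was 0.14. The genes named here were chosen after their values were seen. Phgdh, the first enzyme of serine synthesis and the gene most like Nupr1 (r = 0.970 over 6 libraries, 0.914 over 5 without Rh2-30 mg/kg), was at 0.864 normalized CPM in Control and 3.03 in Rh2-30 mg/kg, and at 0.977 to 1.81 in the other 4. Mthfd2 and Aldh1l2, both of the mitochondrial folate pathway, were 1.02 and 1.17 higher on the log2 scale than in Control, and 1.89 and 1.36 lower with Dox at that dose. Cbs, which makes cystathionine, was 1.63 higher there and 1.84 to 2.25 higher in the 3 Dox libraries.

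**Figure D4:**
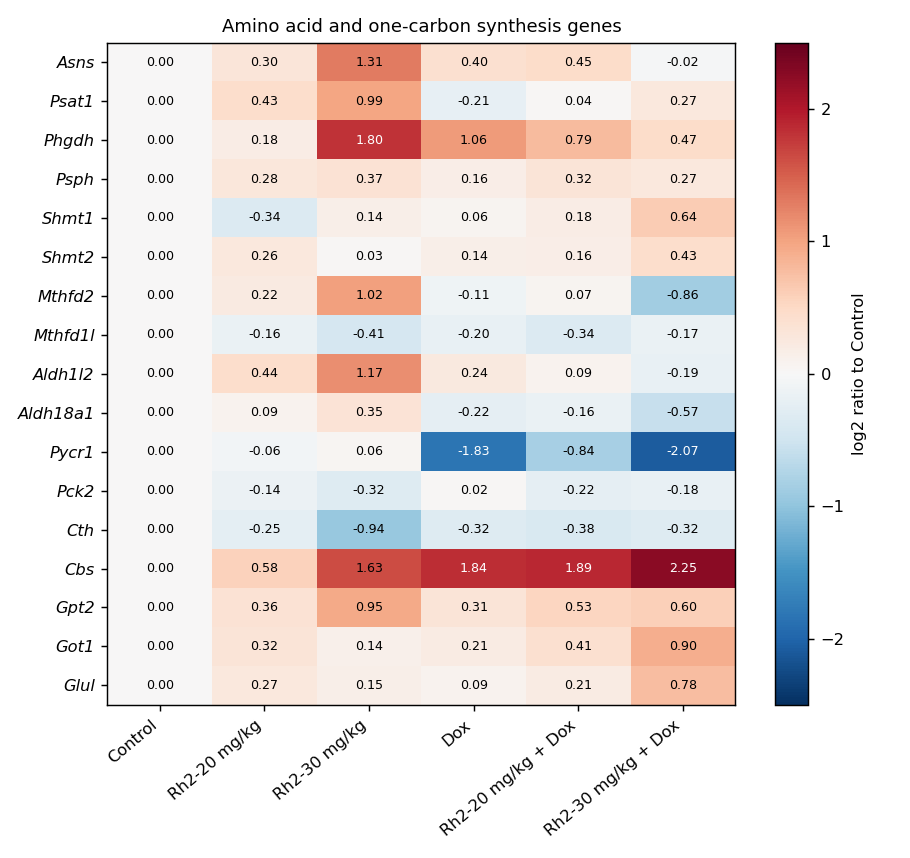
Log2 ratio to Control (colour and number) of Asns, Psat1 and 15 other genes of amino acid and folate metabolism in rows, with the 6 libraries in columns; 1 library per condition. Phgdh (1.80), Cbs (1.63), Asns (1.31), Aldh1l2 (1.17), Mthfd2 (1.02) and Psat1 (0.99) are high in Rh2-30 mg/kg, and Pycr1 is low in the 3 Dox columns.

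In the Dox comparison this list held both positive and negative values. Pycr1, the last step of proline synthesis, had matched-dose Dox ratios of -1.83, -0.78 and -2.13, on counts as low as 13. Cbs had ratios of 1.84, 1.32 and 0.63. In the Dox comparison Pycr1 was at -1.49 (SE 0.41, edgeR adjusted p = 0.337) and Cbs at 1.11 (SE 0.43, adjusted p = 0.453). Shmt1, a cytosolic folate enzyme, had ratios of 0.06, 0.51 and 0.50. In all, 1 gene of 15 was higher and 2 lower at an unadjusted p under 0.05, beside 4.2% and 5.91% of all genes, and 0 at an adjusted one. The second lower gene was Aldh18a1 (-0.46), an earlier step of proline synthesis.

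No gene of the 8 pathway lists passed an adjusted p of 0.05 in edgeR for Dox, for Rh2 or for their product. Among 15 kinases, phosphatases and factors of eIF2alpha, 3 were lower with Dox at an unadjusted p under 0.05, beside 5.91% of all genes, and none higher, beside 4.2%. The same shares stand beside each such count for Dox in the lists that follow, and 4.09% higher and 4.65% lower beside each count for Rh2. They were Ppp1r15a (GADD34, the stress-induced phosphatase subunit), with matched-dose ratios of -0.36, -0.28 and -0.31, Eif2ak2 (PKR, the kinase for double-stranded RNA), with -0.60, -0.23 and -0.59, and Dnajc3, at -0.29 in the Dox comparison. The highest of the list were Eif2b4, with -0.03 to 0.51, and Eif2b3, with -0.10 to 0.38. For Rh2, Eif2s1, which encodes eIF2alpha itself, was the 1 higher (0.31). The median of the list was -0.05 for Dox and 0.11 for Rh2.

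Among 13 tested partners of ATF4 and related factors, Atf3, an early stress factor, had the lowest Dox ratios (-0.61, -0.28 and -2.15), and in the Dox comparison it was at -0.99 (SE 0.37, edgeR adjusted p = 0.440). Nfil3 had ratios of 0.06, -0.02 and 0.54, and Atf6 0.27, -0.08 and 0.56. For Rh2, Cebpd and Cebpb, C/EBP factors that can pair with ATF4, were the 2 with an unadjusted p under 0.05, at 0.89 (SE 0.17) and 0.81 (SE 0.23), and both had an adjusted p of 0.567 in edgeR.

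Amino acid transporters gave 0 of 12 at an unadjusted p under 0.05 for Dox. For Rh2, 2 of 12 were lower, Slc1a4 at -0.50 and Slc7a1 at -0.26. At matched dose Slc1a4, a carrier of neutral amino acids, had Dox ratios of 0.72, 0.39 and 0.41 and Slc7a1, a carrier of basic ones, had -0.34, -0.20 and -0.11. Slc38a3 had 0.53, -0.24 and 0.56, and Slc38a1 -0.10, 0.15 and -0.70. The 20 cytosolic aminoacyl-tRNA synthetases also gave 0 for Dox. Wars, which charges tryptophan and is known to answer interferon gamma, was the highest, with 1.15, 0.40 and 0.20, and Eprs the lowest, with -0.45, -0.21 and 0.08. Aars had -0.28 to 0.05 and Farsb 0.08 to 0.32. In the Rh2 comparison Kars (0.36) and Hars (0.27) were higher at an unadjusted p under 0.05 and Wars lower. Wars was at -0.72 (SE 0.20, edgeR adjusted p = 0.567), and of the 132 genes it was the most like Ddit3 (r = 0.897).

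Of 19 stress effectors, Stc2, a secreted glycoprotein, was the single gene with an unadjusted p under 0.05 for Dox (0.53, SE 0.16, edgeR adjusted p = 0.356). Bbc3 (PUMA), a BH3-only death gene, had Dox ratios of 0.96, -0.08 and 1.25, and Pmaip1 (NOXA), another, had 0.13, -1.36 and -1.51 on 9 to 31 counts. The death receptor gene Tnfrsf10b had -0.18, -0.18 and -1.07. For Rh2, Gadd45b (0.69) and Herpud1 (0.40) were higher and Bcl2l11 (-0.34) lower at an unadjusted p under 0.05. Gdf15, a secreted stress hormone, was 1.23 higher on the log2 scale in Rh2-20 mg/kg + Dox than in Control and 1.28 higher than in Dox. It had 96 counts against 37 and 36. It was the 1 gene of the 19 at least 2-fold higher in each of these ratios, beside 5.13% and 3.08% of all genes.

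The 10 mitochondrial stress genes gave 0 at an unadjusted p under 0.05 for Dox, and Hspe1, the mitochondrial co-chaperonin, was the 1 for Rh2 (0.25). Dele1, which relays mitochondrial damage to the eIF2alpha kinase HRI, had Dox ratios of -0.045, -0.14 and 0.18. The protease subunit Clpp had -0.18 to 0.39, and Hspe1 and its partner Hspd1 -0.34 to -0.05 and -0.29 to -0.09. Of 20 genes of the ATF6 and XBP1 arms, the neighbouring branches of the unfolded protein response, 1 was lower for Dox, the disulfide isomerase Pdia6 (matched-dose ratios -0.24, -0.05 and -0.70), and Canx was the 1 higher for Rh2 (0.27). Pdia3, a related isomerase, had -0.28, 0.04 and -0.69. Sdf2l1 had Dox ratios of 0.99, 0.80 and -0.55, and Derl3 0.76, 2.29 and -0.61 on as few as 3 counts.

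**Figure D5:**
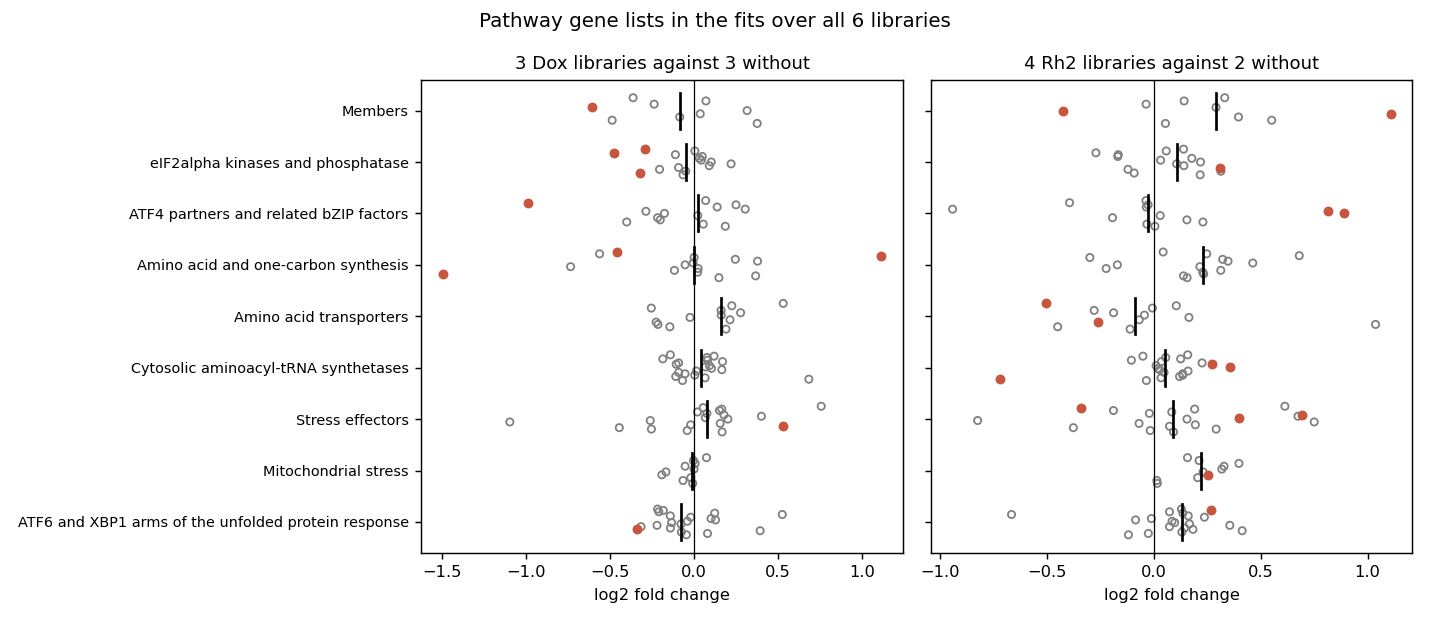
Log2 fold change (horizontal axis) of the 9 detected members and 8 pathway lists, with 3 Dox libraries against 3 without on the left and 4 Rh2 libraries against 2 without on the right; each circle is a gene, filled where the unadjusted p is under 0.05, and the black bar is the list's median. Medians lie between -0.08 and 0.16 for Dox and between -0.09 and 0.29 for Rh2, and Ddit4 (1.11) is the farthest right of the members.

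The members also differed in how they followed each other. Over the 6 libraries the highest correlation of log2 levels between 2 members was between Asns and Nupr1 (r = 0.876), and it was 0.460 over the 5 libraries without Rh2-30 mg/kg. Atf4 and Nupr1 gave 0.820, and 0.832 over those 5. The lowest was between Ddit3 and Psat1 (r = -0.793, and -0.890 over the 5). Nearest among the other genes were Hsp90b1 for Asns (0.987), Mars for Trib3 (0.969), Mthfd2 for Atf5 (0.939), Sel1l for Psat1 (0.921), Gpt2 for Atf4 (0.917) and Aars for Chac1 (0.865). These points share libraries and are a description.

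The 5 genes with the promoter match printed above did not share a pattern over the libraries. Asns and Nupr1 were high in Rh2-30 mg/kg, Chac1 was lower in the Dox libraries, Trib3 was high in Dox and Rh2-30 mg/kg + Dox, and Fgf21 had no counts. Ddit4, whose Rh2 difference had the smallest p of the members, was among the 5 without a match in the window.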

How the data were processed

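Hearts of 5 mice were pooled for each of 6 RNA-seq libraries. Reads were trimmed and aligned to mm10 with HISAT2 2.1.0 and quantified with StringTie 2.1.3b, per the submitters' processing notes, which also name bcl2fastq 2.20.0 and Trimmomatic. The authors deposited whole-number counts per gene without normalization. The authors' deposited FPKM values are per transcript length and mapped fragments, and their deposited TPM values are scaled to one total per library. Libraries were made by capture (SureSelect XT RNA Direct), so a gene's level also depends on its probes.

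The tests used edgeR 4.0.16 under R 4.3.3 (TMM, genes averaging 10 counts or more, quasi-likelihood test, two-sided, Benjamini-Hochberg), limma 3.58.1 and DESeq2 1.42.0. The Dox comparison had no covariate and the Rh2 comparison had Dox as a term. The fit for the product had Dox, Rh2 and their product as terms. Ratios used a prior count of 0.5, with 95% intervals from the exact conditional binomial or with the common dispersion of the libraries as 1 group. Intervals and limits for a count of 0 (3 counts) cover counting error only. P-values measure the spread between these libraries. The steps were tested on simulated data.

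The members and lists were chosen with earlier results of these data known. Named were all members, from each pathway list the 2 genes with the highest and the 2 with the lowest mean Dox ratio at matched dose and any at an adjusted p under 0.05, and for each member the most correlated gene. A gene that this rule names is not reported here. Other genes were named after their values were seen. FPKM served for levels per length and as an alternative, TPM for the order of levels only. Promoter sequences and positions are RefSeq's, on GRCm38.p6, and all 10 genes matched by gene ID. Figures used matplotlib 3.10.9 in Python 3.11.15.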

Additional observations from a re-analysis of the deposited data

Results flagged for a closer look

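For 2 members the ratios pointed one way in 1 set of libraries and the other way in the second set. The share of all genes with such a change of sign was not computed, so the 2 are a description only. A ratio within 0.67 of 0 on the log2 scale lies inside the interval that the dispersion alone gives. Atf5 was higher than Control with each Rh2 dose (log2 ratios 0.11 and 0.30) and lower than Dox with each Rh2 dose added (-0.05 and -0.53), and its Dox ratio was 0.08 without Rh2 and -0.08 and -0.75 with it. Nupr1 was higher than Control with each Rh2 dose (0.20 and 1.40), and at -0.07 and -0.08 when Rh2 was added to Dox. The product of Dox and Rh2 was -0.482 for Atf5 and -1.005 for Nupr1, each with an adjusted p of 0.988 in edgeR's quasi-likelihood test, so a difference between the sets was not shown. For Nupr1 the largest ratio involved the Rh2-30 mg/kg library, whose atrial and fat marker sums were the highest of the 6, and their part was not tested. For Atf5 the largest ratios, -0.75, -0.53 and -0.45 (over Control), share the Rh2-30 mg/kg + Dox library, and without it the Dox difference of -0.24 was -0.087.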

How the results depend on the processing

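With 1 library per condition, no ratio between 2 libraries could be checked in a replicate, and a change of the size of the dispersion (0.67 on the log2 scale) was not detectable in a single ratio. The count of genes for Dox, 5, became 425 with DESeq2's Wald test, 0 with limma on log2(FPKM + 1), 0 with Rh2 dose as a term (a block that sets each Dox library against its partner) and 0 to 14 with 1 library left out, namely 14 without Rh2-30 mg/kg + Dox, 3 without Rh2-30 mg/kg and 0 without any 1 of the other 4. The count for Rh2, 0, became 242 with DESeq2's Wald test and 23 with Rh2-20 mg/kg alone, and was 0 to 0 with 1 library left out. The count for their product, 0, became 38 with DESeq2's Wald test. Of the 9 member ratios past 2-fold, 3 passed on the log2(FPKM + 1) scale, which understates the change of low genes. With the common dispersion estimated by maximum likelihood, an alternative chosen after seeing the data, 5 in place of 14 ratios left out 0. The share over all genes was not computed for either count.

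Among 243 alternative member tests, 223 kept direction and side of the threshold, 3 passed it (Ddit4 with DESeq2 and with Rh2-20 mg/kg alone, Ddit3 with DESeq2) and 17 changed sign, none of them called. Apart from the fits with 1 library left out, these were Ddit4 for Dox (-0.029, limma), Nupr1 for Dox (0.060, Rh2 dose as a term), Atf5 for Rh2 (0.020 with limma, 0.034 with Rh2-20 mg/kg alone) and Trib3 for Rh2 (-0.028, Rh2-20 mg/kg alone). With 1 library left out, values ran from -0.23 to 0.34 for Ddit4, -0.60 to 0.14 for Asns and -0.33 to 0.50 for Nupr1 in the Dox comparison (0.14 for Asns and 0.50 for Nupr1 without Rh2-30 mg/kg), and from -0.27 to 0.21 for Atf5, -0.17 to 0.89 for Asns, -0.19 to 0.32 for Trib3 and -0.077 to 0.93 for Nupr1 in the Rh2 comparison (-0.17 for Asns and -0.077 for Nupr1 without Control).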

Other observations

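Genes induced by PPAR alpha in fasting were set beside the members because Fgf21 belongs to that programme in liver. At matched Rh2 dose, 5 of 8 tested genes were lower with Dox in all 3 pairs, beside 17.6% of all genes. In the other direction, 1 was higher in all 3, beside 15.9%. In the Dox comparison 5 of the 8 were lower at an unadjusted p under 0.05, beside 5.91% of all genes, and 0 passed the adjusted threshold in edgeR's quasi-likelihood test. Only these 5 are named here. Ucp3, a mitochondrial carrier of the uncoupling protein family, was at -1.61 (SE 0.25, adjusted p = 0.149) and Angptl4, an inhibitor of lipoprotein lipase, at -1.65 (SE 0.36, adjusted p = 0.247). Pdk4, a kinase that holds back pyruvate oxidation, was at -1.099 (SE 0.22, adjusted p = 0.216), Plin2, a lipid droplet coat protein, at -0.49 (SE 0.07, adjusted p = 0.121) and Cpt1a, which admits fatty acids to mitochondria, at -0.45 (SE 0.15, adjusted p = 0.408). For these 5 genes the 3 Dox libraries all lay below the 3 without, as for 9.16% of all genes.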
